A study of Homo sapiens with 12 samples.

Results

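The ultraconserved regions are stretches of the human genome, 200 to 779 bp long, that were counted one by one in RNA sequencing of A172 cells. They were taken as the rows of the deposited count table that are marked as transcribed ultraconserved regions and are not named as random, which gave 252 that the submitters listed as intronic, 111 as intergenic, 70 as exonic and intronic, and 48 as exonic. Together they are 0.967% of the table's 49731 intervals. An equal number of random regions, each as long as 1 ultraconserved region, stands beside them in the table and serves as the background, which makes 962 regions in all. A172 is an established human glioblastoma cell line. Cells received either a scrambled control siRNA, siRNA-1 or siRNA-2, both directed against the ultraconserved region uc.110, with 4 libraries in each of the 3 groups. All groups were given 3 µL of 20 µM siRNA with 9 µL of Lipofectamine 2000 for 6 h on day 1, and RNA was collected on day 2. No label says that each library had its own culture. The p-values therefore reflect only how these samples vary, and that variation may be technical.

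Ultraconserved regions are sequences that are identical in the human, mouse and rat genomes. Those that overlap exons lie often in genes of RNA-binding and splicing proteins, where some form exons that carry an early stop codon, whose inclusion sends the messenger RNA to nonsense-mediated decay. Those in introns and between genes lie often near genes of developmental transcription factors, and many act as enhancers in embryos, so a read in one need not come from a transcript of its own.

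The sequences below show 5 members that the results return to, chosen because their coding part could be read from the reference transcripts: uc.186 for its high level, uc.341 for a rise with both siRNAs, uc.169 for a larger rise with siRNA-2, and uc.265 and uc.135 for a fall with siRNA-1 alone. Each is the protein-coding part of the region on the strand of its gene, 5′ to 3′, from GENCODE release 29 transcripts (GRCh38, the hg38 build). Capitals mark ultraconserved bases and lower-case letters mark up to 15 neighbouring coding bases outside the region.
uc.186, HNRNPH1, chr5:179619269-179619407, minus strand: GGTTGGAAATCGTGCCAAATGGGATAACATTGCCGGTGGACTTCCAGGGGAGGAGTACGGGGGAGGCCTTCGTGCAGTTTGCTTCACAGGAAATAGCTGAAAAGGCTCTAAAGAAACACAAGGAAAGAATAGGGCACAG
uc.341, HOXC10, chr12:53989169-53989443, plus strand: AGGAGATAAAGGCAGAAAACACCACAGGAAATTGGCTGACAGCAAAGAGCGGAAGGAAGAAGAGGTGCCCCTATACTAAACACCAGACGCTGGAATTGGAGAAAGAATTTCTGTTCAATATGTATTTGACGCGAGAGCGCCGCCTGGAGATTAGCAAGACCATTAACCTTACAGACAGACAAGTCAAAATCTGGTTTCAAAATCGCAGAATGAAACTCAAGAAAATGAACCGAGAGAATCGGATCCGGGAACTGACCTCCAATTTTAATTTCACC
uc.169, NR2F1, chr5:93585296-93585486, plus strand: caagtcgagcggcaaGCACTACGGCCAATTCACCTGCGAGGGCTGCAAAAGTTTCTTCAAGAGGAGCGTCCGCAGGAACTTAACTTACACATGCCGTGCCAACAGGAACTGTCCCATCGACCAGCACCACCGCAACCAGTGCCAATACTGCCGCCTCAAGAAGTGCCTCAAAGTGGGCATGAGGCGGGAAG
uc.265, SLC44A1, chr9:105356212-105356381, plus strand: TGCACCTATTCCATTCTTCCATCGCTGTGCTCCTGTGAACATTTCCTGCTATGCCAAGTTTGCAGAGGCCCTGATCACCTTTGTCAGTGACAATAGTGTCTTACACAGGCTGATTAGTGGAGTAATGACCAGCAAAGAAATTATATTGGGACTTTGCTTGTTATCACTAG
uc.135, MECOM, chr3:169116480-169116710, minus strand: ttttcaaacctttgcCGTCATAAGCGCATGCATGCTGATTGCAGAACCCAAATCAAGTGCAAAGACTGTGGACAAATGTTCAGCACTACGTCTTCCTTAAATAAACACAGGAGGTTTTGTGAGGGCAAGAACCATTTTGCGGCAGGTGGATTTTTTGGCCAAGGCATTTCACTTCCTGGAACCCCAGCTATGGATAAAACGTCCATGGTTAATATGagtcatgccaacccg

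The stretches in HNRNPH1 and SLC44A1 are whole coding exons, with 139 and 170 bases, and the ultraconserved regions extend past both ends of them. The stretch in NR2F1 holds 176 ultraconserved bases of exon 1, and the 201 bases of uc.135 lie inside exon 8 of MECOM. In HOXC10 the 275 bases belong to exon 2, which encodes the homeodomain. The GC content of these ultraconserved coding bases was 56.3% in uc.169 and 50.4% in uc.186, against 44.8% in uc.135, 43.6% in uc.341 and 43.5% in uc.265.

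Library totals over the 44998 gene intervals used ran from 43382164 to 54522766 reads. The ultraconserved regions held 54155 to 65882 reads per library and the random regions 12276 to 15904, and 236 to 249 ultraconserved regions had at least 1 read in a given library. Scrambled libraries carried the glioma-associated transcripts VIM (2598 ± 117 CPM, SD, n = 4, where CPM is counts per 1000000 gene-interval reads after TMM scaling), CD44 (686 ± 26.7 CPM) and NES (437 ± 19.7 CPM), with lower levels of SOX2 (15.4 ± 1.53 CPM), GFAP (6.19 ± 0.483 CPM) and OLIG2 (4.57 ± 0.303 CPM), whereas the astroglial genes S100B, SLC1A3 and FABP7 were near 0. Of the epithelial markers KRT8 (594 ± 38.0 CPM) and KRT18 (373 ± 23.9 CPM) were high and EPCAM (1.38 ± 0.0822 CPM) and CDH1 (0.238 ± 0.119 CPM) low. Of the other cell types' markers CSF1R (243 ± 14.5 CPM), CD68 (37.9 ± 3.10 CPM) and SYT1 (29.3 ± 1.41 CPM) were read, and CD3E, CX3CR1 and MAG were near 0.

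The region that both siRNAs were directed against was barely read. At uc.110 (chr2:236162738-236162980) the scrambled libraries had 4, 0, 1 and 6 reads, those of siRNA-1 had 2, 0, 1 and 2, and those of siRNA-2 had 3, 0, 4 and 0, so all groups reached 0 and overlapped. Summed reads were 11, 5 and 7, a ratio of 0.466 with siRNA-1 (95% interval 0.127 to 1.45, p = 0.211, two-sided exact Poisson test) and of 0.600 with siRNA-2 (0.197 to 1.70, p = 0.349, same exact test). Without scrambled replicate 2, which had no read, the siRNA-1 ratio was 0.350 (exact p = 0.0466). Without scrambled replicate 4 the ratios were 0.767 (exact p = 0.755) and 0.988 (exact p = 1.0), and without siRNA-2 replicate 3 the siRNA-2 ratio was 0.346 (exact p = 0.109). A change in the targeted region was not detectable at this depth. In bulk RNA, fewer cells with a transcript and less of it per cell cannot be told apart. The long noncoding RNA interval that holds it, LOC105373944, was lower with siRNA-2 (log2 fold change -1.24, SE 0.33, adjusted p = 0.00263, edgeR) and stood at -0.68 with siRNA-1 (SE 0.32, adjusted p = 0.0789).

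Position in the GENCODE annotation set the members apart from the random regions. Exon sequence was present in 140 ultraconserved and 38 random regions, and protein-coding sequence in 86 and 21. Of the ultraconserved regions, 96 were exon in some transcripts and intron in others, against 11 of the random regions, and 43 overlapped an exon of a transcript annotated for nonsense-mediated decay. A further 23 were exon in every transcript that covered them, 21 lay across an exon and its edge, 232 were intron only and 109 lay outside genes. Outside genes the random regions were more numerous, with 227.

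More ultraconserved than random regions carried reads. At least 1 read in at least 4 libraries was found for 251 ultraconserved regions (52.2%) and 153 random regions (31.8%), while 161 and 265 had no read in any library. A region without a read is below the limit of 3 reads over the 12 libraries, which covers counting error only. By kind of position the order was not always the same: 134 of 232 intron-only ultraconserved regions were detected (57.8%) against 107 of 216 random ones (49.5%), and outside genes 8 of 109 (7.34%) against 13 of 227 (5.73%). Among regions that were exon of some transcripts and intron of others, 77 of 96 ultraconserved (80.2%) and 10 of 11 random regions (90.9%) were detected. Across an exon and its edge the shares were 81.0% and 89.5%, and in regions that are always exon they were 15 of 23 and 6 of 8. The median count per library was 110 reads in ultraconserved and 10.3 in random regions that are exon of some transcripts, 69.8 and 60.7 across an exon and its edge, 6.25 and 6.12 in regions that are always exon, and 1.92 and 0.667 in introns. By the submitters' own classes, 40 of 48 exonic, 50 of 70 exonic and intronic, 150 of 252 intronic and 11 of 111 intergenic regions were detected. These are counts without a test, since regions in 1 gene share reads.

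**Figure D1:**
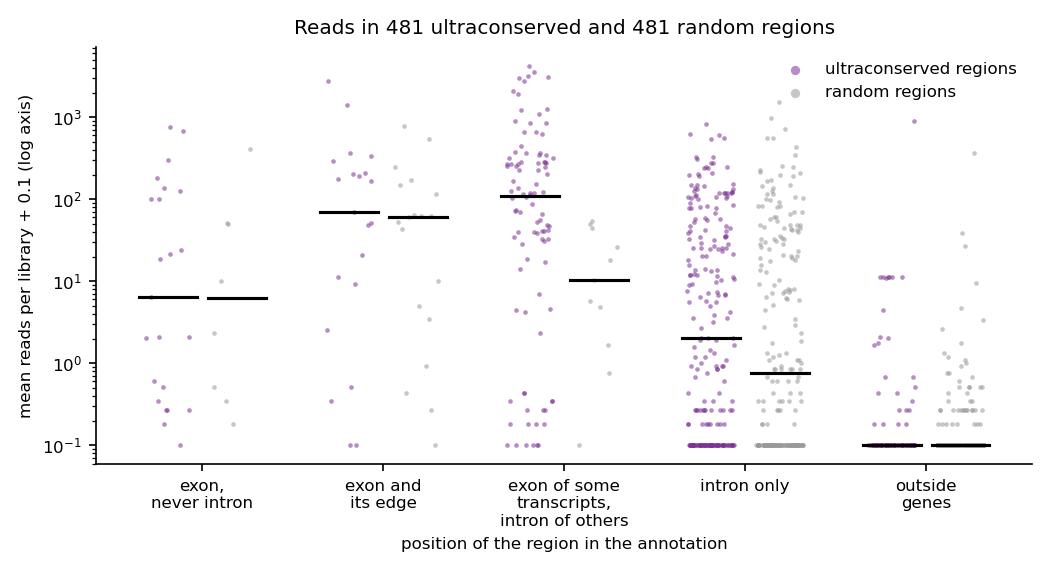
Each point is 1 region, ultraconserved in purple and random in grey, placed by its position in GENCODE (horizontal axis) and by its mean reads per library plus 0.1 on a log axis (vertical); black bars are medians. The medians stand near 110 and 10.3 reads for regions that are exon of some transcripts, while most regions outside genes sit at the bottom with no read.

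The reads were concentrated in genes of RNA-binding proteins. The 10 most-read members held 45.1% of all reads in ultraconserved regions. In CPM per kb of region, 12 members reached 100 in the scrambled libraries, 10 of them exon of some transcripts and intron of others, against 1 random region. Of the 10 regions with the highest level over the 3 groups, 9 lay in genes of the RNA processing list, and the other, uc.338, overlaps PCBP2, which codes for a poly(C)-binding protein.

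The highest was uc.263 in HNRNPK, a gene for a nuclear ribonucleoprotein that binds poly(C) RNA, with 436 CPM per kb in scrambled, 422 under siRNA-1 and 412 under siRNA-2. uc.46 in HNRNPU, a scaffold-attachment ribonucleoprotein gene, was at 373, 343 and 307. These levels make HNRNPK and HNRNPU the hosts of the most-read members in all 3 groups.

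Next came uc.338 (281, 253 and 246), uc.420 in the RNA helicase gene DDX5 (240, 262 and 232), uc.264, which starts next to uc.263 in HNRNPK (247, 240 and 233), and uc.186 in HNRNPH1 (224, 234 and 199). The SR splicing factor genes followed, with uc.418 and uc.419 in SRSF1 (143 and 142 in scrambled), uc.50 in SRSF7 (116) and uc.189 in SRSF3 (107). The pair in SRSF1 had levels that did not differ beyond their spread. Among random regions the highest was 1 in an intron of CAP1, an actin-regulating gene, at 104 CPM per kb.

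Counts in introns did not follow the length or the place of a region. In 28 pairs of ultraconserved regions in the same intron, with no annotated exon in or between them and at least 10 reads per library on average, 13 pairs had the same count in all 12 libraries and 21 never differed by more than 1 read. The 28 pairs drew on 37 regions in 13 genes. Lengths within a pair differed by up to 2.8 times and by a median ratio of 1.21, while the median ratio of counts was 1.0009. The equal pairs lay up to 30301 bp apart. In 51 pairs in the same gene with an exon between them, none was equal in all 12 libraries, the median ratio was 1.26 and the largest 4.41. Many of these 51 pairs lie in POLA1.

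In PBX3, a homeobox gene, 6 intron-only regions, uc.273 to uc.279 without uc.276, are 237 to 336 bp long and lie over 155297 bp of chromosome 9, and all 6 averaged between 120.0 and 123 reads per library. uc.276 lies among them, overlaps an exon of some transcripts, is 432 bp long and averaged 120.2 reads. These PBX3 regions do not all share 1 intron, and some of their pairs are counted above with an exon between. Even so, uc.273 and uc.278 had a count ratio of 1.02, and uc.275 and uc.277 had equal counts in 11 libraries. In ZNF407, uc.437, uc.438 and uc.439 had the same 9, 15, 19 and 20 reads in the scrambled libraries. The widest gap in counts was between uc.103 and uc.104 in OLA1, at 17 reads in 1 library. Reads that lie in a region and reads that span the intron around it cannot be told apart in such counts, and the sources used here do not give how gapped alignments were counted. The level of such a region cannot be read as that of the region alone.

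**Figure D2:**
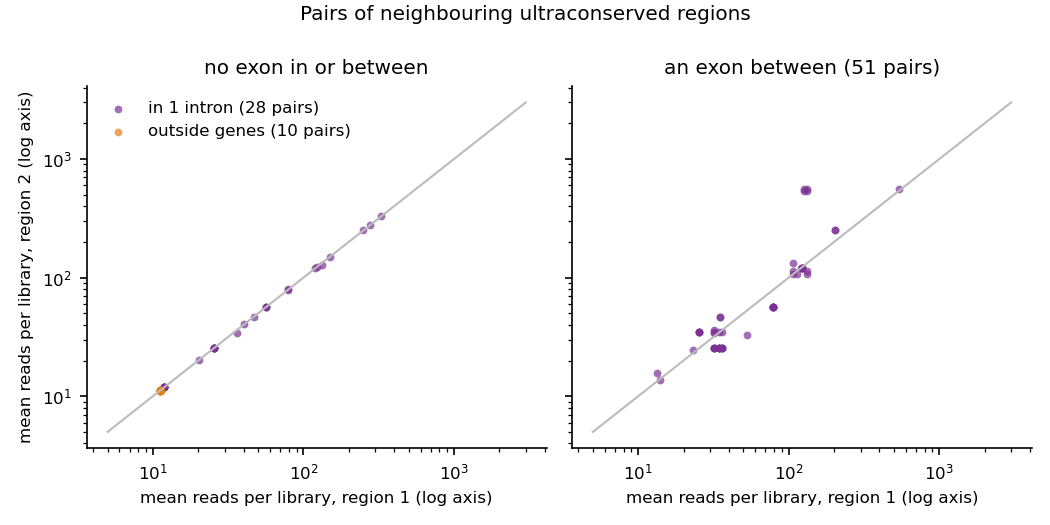
Each point is a pair of neighbouring ultraconserved regions, with the mean reads per library of one on each log axis and the line of equality in grey. With no exon in or between (left), all pairs lie on or next to the line, in introns (purple) and outside genes (orange), and with an exon between (right) they scatter from it by up to 4.41 times. The pairs in PBX3 with an exon between also lie next to the line.

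The same held outside genes. The 6 neighbouring regions, uc.293 to uc.298, lie over 75348 bp of chromosome 10 between HIF1AN and PAX2, the latter a paired-box transcription factor gene. Each held 134 reads in scrambled replicate 4 and none in any other library, except 1 read in uc.296 in siRNA-1 replicate 4. The next regions, uc.299 to uc.301 inside PAX2, had 150, 140 and 141 reads in that library, against 2 to 21 in the rest of the scrambled group, 7 to 37 in the siRNA-1 group and 10 to 52 in the siRNA-2 group. None of the 3 passed the test against scrambled with either siRNA. Without scrambled replicate 4, all 3 were higher with siRNA-1, by 1.22 to 1.44 on the log2 scale (highest adjusted p = 0.0433, edgeR quasi-likelihood test), and with siRNA-2, by 1.55 to 2.18 (highest adjusted p = 0.00745).

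uc.453 was the only member in no gene interval and no GENCODE gene that entered the tests. It lies at chr19:41933165-41933489, 3023 bp from ARHGEF1 and 23194 bp from RABAC1. It held 627, 626, 921 and 743 reads in scrambled, 882, 788, 932 and 1105 under siRNA-1 and 742, 1189, 1078 and 1077 under siRNA-2. In every library its count was 84.3% to 91.4% of that of ERFL, a gene interval on 1 side of it. Across the 12 libraries the correlation of its counts with those of ERFL was 0.995, a description of counts that share their library depth. Reads of its own and reads that span it cannot be told apart. It was called higher with siRNA-1 (log2 fold change 0.39, SE 0.13, adjusted p = 0.0331, edgeR quasi-likelihood test) and with siRNA-2 (0.40, SE 0.13, adjusted p = 0.0271). Its groups overlapped. Without a filter on low counts neither call held (adjusted p = 0.0972 and 0.0847), and both were lost without scrambled replicate 1, 2 or 4 (adjusted p up to 0.117 and 0.0947). The siRNA-1 call was also lost without siRNA-1 replicate 1, 3 or 4 and with only the 2 groups compared (adjusted p = 0.0524), and the siRNA-2 call without siRNA-2 replicate 2, 3 or 4. The neighbouring genes moved too. With siRNA-1 and siRNA-2, ERFL rose by 0.36 and 0.40 (adjusted p = 0.0203 and 0.0106, edgeR) and RABAC1 by 0.44 and 0.54. ARHGEF1 stood at -0.04 with siRNA-1 and rose by 0.29 with siRNA-2.

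Of the ultraconserved regions, 198 had enough reads to be tested in the fit over all 25144 intervals, and 283 were not tested. With siRNA-1, 41 of the 198 were higher than in scrambled and 47 lower, that is 20.7% and 23.7%, beside 28.5% and 24.8% of all intervals tested. With siRNA-2, 40 were higher and 55 lower (20.2% and 27.8%), beside 29.8% and 26.2% of all intervals. The random regions gave 17 higher and 18 lower of 103 under siRNA-1, and 23 and 20 under siRNA-2. The median log2 fold change of the tested members was -0.07 under siRNA-1 and -0.06 under siRNA-2, against 0.00 and 0.01 over all intervals. The shares of members called lower were near the background and those called higher were below it. Both siRNAs called 30 members higher and 37 lower, and none in opposite directions, in comparisons that share the 4 scrambled libraries. This overlap was not counted over all intervals or over random regions, so it cannot be read as a trait of the members. When every interval of the table entered the fit and the library sizes, 30 members were higher and 55 lower under siRNA-1, beside 25.6% and 29.8% of all intervals. Under siRNA-2 the counts were then 36 and 70, beside 26.7% and 31.8%. Without siRNA-1 replicate 3 the 41 higher calls were 26, and without scrambled replicate 1 they were 27, while 24.6% and 24.9% of all intervals were then called higher. Counting 1 region per holding gene, which was chosen after seeing the data, left fewer regions to count. Of the siRNA-1 calls, 35 of 41 higher and 34 of 47 lower remained, and of the siRNA-2 calls 31 of 40 and 33 of 55.

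Of the 11 tested members that are exon in every covering transcript, 8 were called higher with siRNA-1 and 6 with siRNA-2, with 2 lower in each. Summed over all 23 members of this position, tested or not, reads were 45.0 ± 0.752 CPM in scrambled (SD, n = 4, without TMM factors). The sums were 55.2 ± 2.94 under siRNA-1 and 53.6 ± 1.24 under siRNA-2. Members called higher with both were in RC3H2, EXT1, which codes for a heparan sulfate polymerase, SP3, a zinc finger transcription factor gene, UBE2B, CPEB4 and CASK, and those called lower were in ZBTB18 and TNPO1. Of 98 intron-only members tested, 13 were higher and 28 lower under siRNA-1 (13.3% and 28.6%, beside 28.5% and 24.8% of all intervals). Under siRNA-2 these were 13 and 33 (13.3% and 33.7%, beside 29.8% and 26.2%), so the higher shares lay below the background and the lower shares near or above it. The lower ones lay in 21 holding genes with siRNA-1 and 17 with siRNA-2. The sum over all 232 intron-only members, tested or not, was 259 ± 5.50 CPM in scrambled, 225 ± 7.35 under siRNA-1 and 223 ± 4.66 under siRNA-2. Regions with equal counts in 1 intron each enter this sum, so the same reads may be counted more than once. Of 4 random regions that are exon in every covering transcript, 1 was higher and 1 lower under siRNA-1, and under siRNA-2 none was higher and 2 were lower. Random intron-only regions had 14 higher and 15 lower of 77 under siRNA-1, and 18 and 15 under siRNA-2. Whether the position classes differ was not tested.

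Several regions whose siRNA libraries all lay above the scrambled ones stood in genes that rose as a whole. uc.203, in QKI, an RNA-binding protein gene, had 1.80, 2.09, 2.06 and 2.44 CPM in scrambled, 4.59, 4.03, 4.33 and 5.16 under siRNA-1 and 4.25, 4.67, 4.70 and 4.01 under siRNA-2. All 8 siRNA libraries were above all 4 scrambled ones. The rise was 1.11 on the log2 scale (SE 0.12, adjusted p = 1.39e-08) with siRNA-1 and 1.07 (SE 0.12, adjusted p = 2.06e-08) with siRNA-2, beside 1.06 and 1.02 for the QKI interval.

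uc.268 lies in the 3′ untranslated part of RC3H2, a gene for an RNA-binding ubiquitin ligase. It had 1.12, 1.48, 1.29 and 0.961 CPM in scrambled, 2.99, 2.54, 2.90 and 2.65 under siRNA-1 and 2.17, 2.75, 1.97 and 2.17 under siRNA-2, and the scrambled libraries lay below all others. Its log2 fold changes were 1.19 (SE 0.15, adjusted p = 3.22e-07) and 0.90 (SE 0.15, adjusted p = 1.81e-05), beside 0.85 and 0.50 for the gene. The difference between region and gene did not pass the test of shares described below.

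uc.341, the homeodomain exon of HOXC10 shown above, rose from 3.74, 3.77, 4.39 and 3.93 CPM to 6.18, 6.59, 8.15 and 7.89 under siRNA-1 and to 6.45, 6.62, 6.28 and 6.11 under siRNA-2. No library of either siRNA overlapped the scrambled ones. The log2 fold changes were 0.86 (SE 0.10, adjusted p = 4.70e-08) and 0.68 (SE 0.10, adjusted p = 1.66e-06), and those of the HOXC10 interval 0.86 and 0.70. The region held 44.1%, 44.1% and 43.7% of that interval's reads in the 3 groups.

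Other rises rested on smaller counts. uc.387, at an exon edge of MGA, was singled out after its values were seen: it had 8 to 17 reads in scrambled, 16 to 32 under siRNA-1 and 18 to 33 under siRNA-2. It rose by 1.13 (SE 0.33) and 1.00 (SE 0.33) on the log2 scale (adjusted p = 0.00562 and 0.0126, edgeR), while the log2 ratio of mean CPM of the rest of MGA was 0.13 and 0.19, and the difference in share did not pass the test with either siRNA. Also singled out after its values were seen, uc.95, outside GENCODE genes and in the interval of SP5, rose with siRNA-2 by 1.59 (SE 0.53, adjusted p = 0.0126, edgeR) from 0 to 10 reads in scrambled to 7 to 27, with overlapping groups. It was not called with siRNA-1, although its log2 fold change there was also positive and all siRNA-1 libraries lay above all scrambled ones in CPM. The SP5 interval rose with both siRNAs, by 1.06 and 1.36 (adjusted p = 1.67e-05 and 5.80e-07, edgeR), and the RefSeq noncoding gene ERICH2-DT lies over uc.95. uc.334, in an intron of NTM, an adhesion protein gene, had 9 to 14 reads in scrambled, 20 to 33 under siRNA-1 and 22 to 34 under siRNA-2, and rose by 1.21 and 1.13 on the log2 scale (adjusted p = 0.00163 and 0.00281). uc.256, in the neuronal RNA-binding protein gene ELAVL2, had 11 to 26 reads in scrambled and 28 to 35 with siRNA-1 and rose there by 1.05 (adjusted p = 0.00242), while with siRNA-2 it had 20 to 27 reads and stood at 0.49 (adjusted p = 0.153). uc.305 and uc.306, in 1 intron of BTRC, the gene of an F-box protein that marks targets for degradation, had the same counts in all 12 libraries. Both rose by 0.89 and 0.80 (adjusted p = 4.17e-05 and 0.000145) and count as 1 measurement. uc.343 in the HOXC cluster rose by 0.77 and 0.70 (adjusted p = 0.000277 and 0.000748).

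Other members stood out with siRNA-2. uc.169, in the first exon of NR2F1, which codes for a nuclear receptor of neural development, had 2.63, 2.37, 2.34 and 2.53 CPM in scrambled, 3.30, 3.28, 2.99 and 3.87 under siRNA-1 and 5.19, 6.43, 6.16 and 5.85 under siRNA-2. The 3 groups did not overlap. It was higher by 0.45 with siRNA-1 (SE 0.11, adjusted p = 0.00146) and by 1.26 with siRNA-2 (SE 0.11, adjusted p = 2.41e-10), and the direct comparison of siRNA-2 with siRNA-1 gave 0.81 (SE 0.11, adjusted p = 1.30e-06). uc.378 in NRXN3, a synaptic adhesion gene, had 5 to 13 reads in scrambled, 8 to 19 under siRNA-1 and 26 to 36 under siRNA-2, where it rose by 1.60 (SE 0.34, adjusted p = 0.000243). Its difference between the siRNAs was 0.97 (adjusted p = 0.0207), lost without siRNA-1 replicate 2, siRNA-2 replicate 2 or siRNA-2 replicate 4 (adjusted p up to 0.086). In an intron of ZEB2, a zinc finger gene of epithelial-mesenchymal transition, uc.76 rose by 0.85 with siRNA-2 (SE 0.29, adjusted p = 0.0157), a call lost without scrambled replicate 3 (adjusted p = 0.0593) or without siRNA-2 replicate 1 (0.0501).

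**Figure D3:**
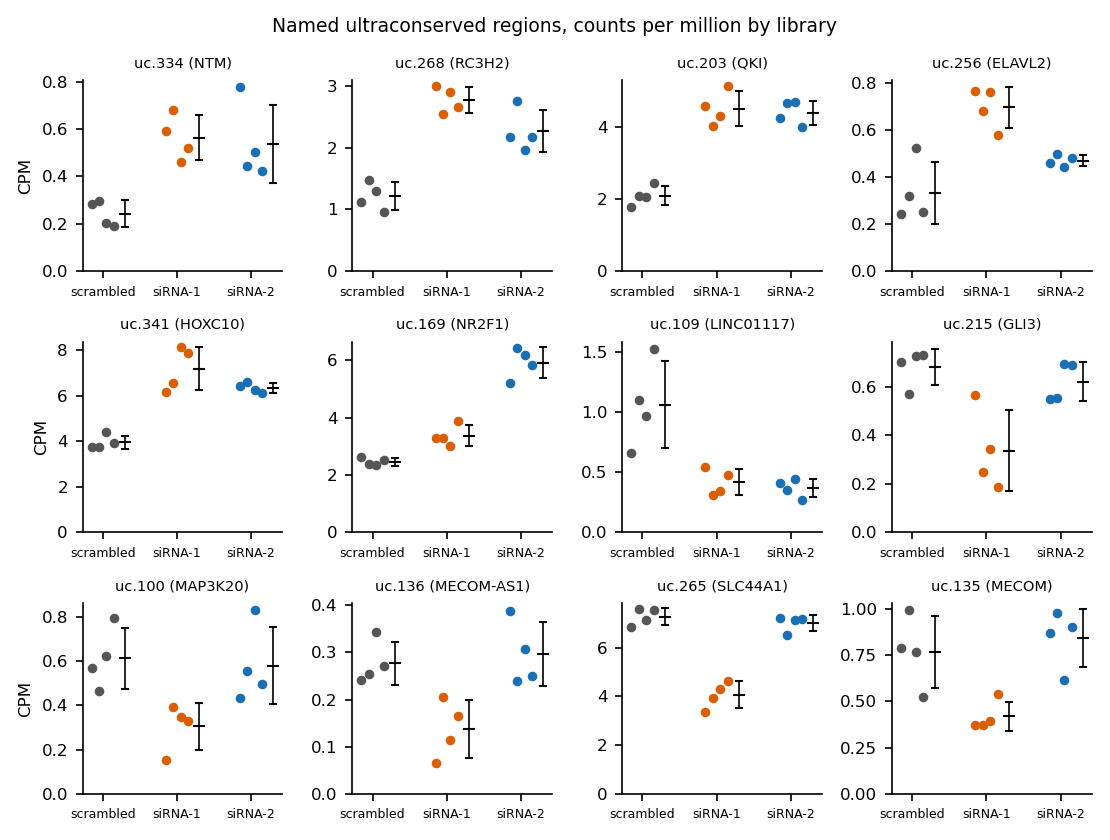
CPM of 12 named ultraconserved regions, 1 panel each with its gene, with 1 point per library for scrambled (grey), siRNA-1 (orange) and siRNA-2 (blue), and the mean with SD (n = 4) beside each group. uc.203 rises about equally in both siRNA groups, uc.169 most with siRNA-2, and uc.265 falls with siRNA-1 alone.

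Among the members that fell and whose siRNA libraries all lay below the scrambled ones, uc.109 had the lowest log2 fold change with each siRNA. It lies in an intron of the long noncoding RNA LINC01117 and had 30, 52, 48 and 73 reads in scrambled, 25, 15, 15 and 23 under siRNA-1 and 18, 19, 23 and 14 under siRNA-2. All siRNA libraries were below all scrambled ones in CPM, and both siRNA groups overlapped each other. The log2 fold changes were -1.34 (SE 0.28, adjusted p = 0.000227) and -1.53 (SE 0.28, adjusted p = 4.43e-05), beside -1.59 and -1.70 for the whole LINC01117 interval. uc.73 in GTDC1, singled out after its values were seen, had 9 to 36 reads in scrambled, 5 to 13 under siRNA-1 and 2 to 11 under siRNA-2, so its groups overlapped. It fell by 1.19 (SE 0.44) and 1.55 (SE 0.46) on the log2 scale (adjusted p = 0.0268 and 0.00528, edgeR).

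uc.483, in an intron of TBC1D5, a Rab GTPase-activating protein gene of endosomal traffic, had 152 to 173 reads in scrambled, 60 to 106 under siRNA-1 and 48 to 87 under siRNA-2. It fell by 0.89 (SE 0.16, adjusted p = 3.16e-05) and by 1.33 (SE 0.16, adjusted p = 9.91e-08), and the gene by 0.83 and 1.28. uc.272, uc.270 and uc.271 are listed as intergenic but lie in introns of MAPKAP1, which codes for a subunit of mTOR complex 2. uc.272 had 295 to 371 reads in scrambled, 150 to 198 under siRNA-1 and 167 to 239 under siRNA-2, and fell by 0.86 and 0.83 (adjusted p = 2.10e-07 and 2.65e-07). uc.270 and uc.271 shared nearly all their reads and both fell by 0.63 and 0.70. With these 3 and uc.453, all 4 tested members of the intergenic class were called with both siRNAs, but 3 of the 4 are intronic by GENCODE. Among all intervals, 28.5% rose and 24.8% fell under siRNA-1, while siRNA-2 gave 29.8% and 26.2%. uc.270 and uc.271 count as nearly 1 measurement, and both uc.453 calls were lost in several alternatives. The class is too small for its share to be compared with that background.

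uc.13, across an exon edge of AGO1, the gene of an Argonaute protein that binds small RNAs, had 57 to 81 reads in scrambled, 25 to 52 under siRNA-1 and 29 to 54 under siRNA-2. It fell by 0.78 (SE 0.21, adjusted p = 0.00316) and by 0.86 (SE 0.21, adjusted p = 0.00119), and the AGO1 interval by 0.75 and 1.01. In LRBA, a vesicle traffic gene, uc.147 fell by 0.59 and 1.08 (adjusted p = 0.0308 and 0.00029). uc.148 and uc.149, 1 bp apart in an intron of the same gene, had equal counts in every library and passed with siRNA-2 (-0.89, adjusted p = 0.0169) but not with siRNA-1 (-0.72, adjusted p = 0.0511), and without scrambled replicate 3 or siRNA-2 replicate 4 the siRNA-2 call was lost (adjusted p = 0.0514 and 0.0501). uc.72, in introns of GTDC1 and of a noncoding gene, fell with siRNA-2 by 1.12 (adjusted p = 0.0104).

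Other members fell with siRNA-1 and were lower with it than with siRNA-2. uc.265, the choline transporter gene SLC44A1's exon shown above, had 6.85, 7.57, 7.13 and 7.52 CPM in scrambled, 3.36, 3.95, 4.31 and 4.64 under siRNA-1 and 7.20, 6.52, 7.13 and 7.17 under siRNA-2. The siRNA-1 libraries lay below all others. It fell by 0.84 with siRNA-1 (SE 0.10, adjusted p = 3.98e-08) and stood at -0.05 with siRNA-2 (SE 0.09, adjusted p = 0.638), with a difference between the siRNAs of 0.78 (SE 0.10, adjusted p = 4.69e-07). The SLC44A1 interval was lower with both, at -0.92 and -0.24.

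uc.215, in an intron of GLI3, a transcription factor of hedgehog signalling, had 32, 27, 36 and 35 reads in scrambled, 26, 12, 15 and 9 under siRNA-1 and 24, 30, 36 and 36 under siRNA-2. It fell by 1.02 with siRNA-1 (SE 0.29, adjusted p = 0.00484) and differed between the siRNAs by 0.89 (SE 0.29, adjusted p = 0.0219). uc.382, in DPH6-DT, fell by 0.96 with siRNA-1 (adjusted p = 0.0282), a call lost without scrambled replicate 3 (adjusted p = 0.0501), siRNA-1 replicate 3 (0.0757) or siRNA-1 replicate 4 (0.068), and also without a filter on low counts (0.0547). Its difference between the siRNAs, 0.93 (adjusted p = 0.0484), was lost in 13 alternatives. uc.136, in the MECOM-AS1 interval, had 3 to 10 reads with siRNA-1 and 11 to 17 in scrambled and fell by 0.98 (adjusted p = 0.0426), a call lost in 11 alternatives, 8 of which leave out 1 library (adjusted p up to 0.14 without siRNA-1 replicate 1). It was also called higher with siRNA-2 than with siRNA-1. That call was lost under DESeq2 (1.08, adjusted p = 0.0662) and without siRNA-1 replicate 1 (0.84, adjusted p = 0.142, edgeR), among other alternatives.

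The direct comparison of siRNA-2 with siRNA-1 called 13 members higher and 16 lower of 198, or 6.57% and 8.08%, beside 15.7% and 16.7% of all intervals, and 6 and 2 of 103 random regions. Without siRNA-1 replicate 2 the counts were 8 and 10, without siRNA-2 replicate 4 there were 8 higher, and without siRNA-1 replicate 3 there were 10 lower. uc.135, the MECOM coding stretch shown above, had 36, 47, 38 and 25 reads in scrambled, 17, 18, 17 and 26 under siRNA-1 and 38, 53, 32 and 47 under siRNA-2. It was lower with siRNA-1 (-0.87, SE 0.26, adjusted p = 0.00615) and higher with siRNA-2 than with siRNA-1 (1.00, SE 0.25, adjusted p = 0.00339). MECOM codes for a zinc finger transcription factor, and its interval was lower with both siRNAs, at -0.36 and -0.49.

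Lower with siRNA-2 than with siRNA-1 were uc.213 in HOXA5 (-0.97, SE 0.37, adjusted p = 0.0433), uc.143 in the stress granule gene G3BP2 (-0.50, SE 0.15, adjusted p = 0.00929) and uc.104 in OLA1 (-0.49, SE 0.16, adjusted p = 0.0175). uc.213 had 6 to 14 reads in scrambled, 14 to 32 under siRNA-1 and 8 to 14 under siRNA-2, and its call was lost in 9 alternatives. The call for uc.143 was lost without siRNA-1 replicate 3 (adjusted p = 0.053). The call for uc.104 was lost without siRNA-1 replicate 2 or siRNA-1 replicate 3 (adjusted p = 0.0706 and 0.0806). uc.483 in TBC1D5 was also called lower with siRNA-2 than with siRNA-1. That call was lost under DESeq2 (-0.44, adjusted p = 0.0510) and without any 1 of the scrambled libraries. It was lost as well without siRNA-1 replicate 4 (-0.33, adjusted p = 0.176, edgeR), among other alternatives.

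Members in RNA processing genes were called in both directions with each siRNA. The list, chosen with earlier results known, held 38 regions, of which 35 were tested. With siRNA-1, 5 were higher and 8 lower (14.3% and 22.9%), and with siRNA-2, 2 and 9 (5.71% and 25.7%), beside the backgrounds of all intervals given above. The medians were -0.04 and -0.13. Higher with both were uc.203 in QKI and uc.356 in the splicing regulator gene MBNL2 (0.33 and 0.42). Lower with both were uc.13, uc.45 and uc.46 in HNRNPU (-0.30 and -0.36 for uc.45, -0.12 and -0.28 for uc.46, whose siRNA-1 call was lost without scrambled replicate 2 or siRNA-1 replicate 1, adjusted p up to 0.0917), uc.458 in RBFOX2 (-0.31 and -0.24) and uc.153 and uc.154 in TNPO1, a nuclear import receptor gene (-0.35 and -0.25, -0.75 and -0.62).

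Among the most-read members, uc.186 in HNRNPH1 was not called with siRNA-1 (0.06, adjusted p = 0.237) and was lower with siRNA-2 (-0.17, SE 0.04, adjusted p = 0.000886), with 71.2, 70.2, 64.9 and 67.3 CPM in scrambled and 60.6, 60.8, 57.7 and 63.3 with siRNA-2. uc.338 was lower with both (-0.15 and -0.20, adjusted p = 0.00163 and 0.000105). uc.420 in DDX5 was called higher with siRNA-1 by 0.12 (adjusted p = 0.0387), with overlapping groups and a call lost in 10 alternatives, among them without siRNA-1 replicate 1 (adjusted p = 0.221). uc.418 in SRSF1 was lower with siRNA-2 (-0.23, adjusted p = 0.00077), whereas uc.419 in the same gene (-0.11, adjusted p = 0.0535), uc.263, uc.264, uc.50 and uc.189 were not called with either siRNA, although with siRNA-2 uc.419 passed in 9 alternatives, uc.263 in 5, uc.264 in 2 and uc.50 in 1. For uc.189 in SRSF3 the values were 0.02 and -0.00, each with SE 0.04. uc.443 in HNRNPM, a ribonucleoprotein gene, held 1160 reads in scrambled replicate 4 against 497 to 574 in the other scrambled libraries and was not called.

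The list of developmental transcription factor genes held 76 regions, 51 of them intron only. Of the 76, 34 were tested, and 29 had fewer than 1 read per library on average. With siRNA-1, 6 were higher and 9 lower, and with siRNA-2, 10 and 8, with medians of -0.02 and 0.14. These are 17.6% and 26.5%, and 29.4% and 23.5%, of those tested. Apart from the higher calls with siRNA-1, which were below it, the shares were near those of all intervals given above. PBX3 alone supplied 8 of the lower calls with each siRNA. Its regions uc.273 to uc.279, of nearly equal counts, fell by 0.72 to 0.74 and by 0.74 to 0.76, and uc.280, which overlaps a PBX3 exon, by 0.50 and 0.67. With siRNA-2, 5 of the 10 higher calls lay in ZEB2, where uc.78, uc.79 and uc.80 have the same log2 fold change of 0.68. Higher with both siRNAs were uc.169 in NR2F1, uc.343 in the HOXC cluster, uc.190 in FOXP4, a forkhead gene (0.70 and 0.78), and uc.385 in MEIS2, a homeobox gene (0.17 and 0.21). uc.408 in ZFHX3 rose with siRNA-2 (0.68) and stood at -0.22 with siRNA-1, and uc.388 in TCF12 rose with siRNA-1 (0.43) and stood at 0.23 with siRNA-2.

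The list of chromatin and co-regulator genes had 3 regions, all tested: uc.480 and the region beside it in the cohesin gene STAG2 were higher with siRNA-1 (0.39 and 0.48), and uc.413 in the Mediator gene MED1 was higher with siRNA-2 (0.51). Of 6 regions in neuronal, channel and adhesion genes, 2 were tested, and uc.378 in NRXN3 was the 1 called. Over all intervals, 28.5% were called higher with siRNA-1 and 29.8% with siRNA-2. The 2 calls in STAG2 come from 1 gene, and both lists are too small for their shares to be compared with these.

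Most called members moved with the gene that holds them, taken as the shortest gene interval that contains the whole region. Such a gene was found for 360 ultraconserved regions, in 245 distinct intervals. With siRNA-1, 83 called members had one, and the gene was called in the same direction for 81 and not called for 2. With siRNA-2 the numbers were 90, 89 and 1, and no gene was called in the opposite direction with either siRNA. These counts are not independent, as a region's reads belong to its gene's total. In the direct comparison of the siRNAs, 27 called members had a holding gene, of which 23 were called the same way, 2 not at all, and 2, for uc.135 and uc.100, the opposite way. Of 6 called random regions with a holding gene, 5 had it called the same way and 1 not at all.

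A region can be set apart from its gene by its share of the gene's reads. Against the rest of the gene, 184 ultraconserved regions and 85 random ones could be fitted. Across the 184 regions, in 124 genes, the log2 ratio of the region and that of the rest of its gene had a Spearman correlation of 0.81 under siRNA-1 and 0.80 under siRNA-2, and the median absolute difference was 0.11 and 0.12. The correlation describes regions that can share reads. For random regions it was 0.86 and 0.85. With siRNA-1 the share of no member passed the threshold (edgeR quasi-likelihood test, 20 at an unadjusted p under 0.05, lowest adjusted p = 0.0596), beside 0.0% of all 269 regions fitted. With siRNA-2 it passed for 2 members (29 at an unadjusted p under 0.05), beside 1.49% of all regions fitted.

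**Figure D4:**
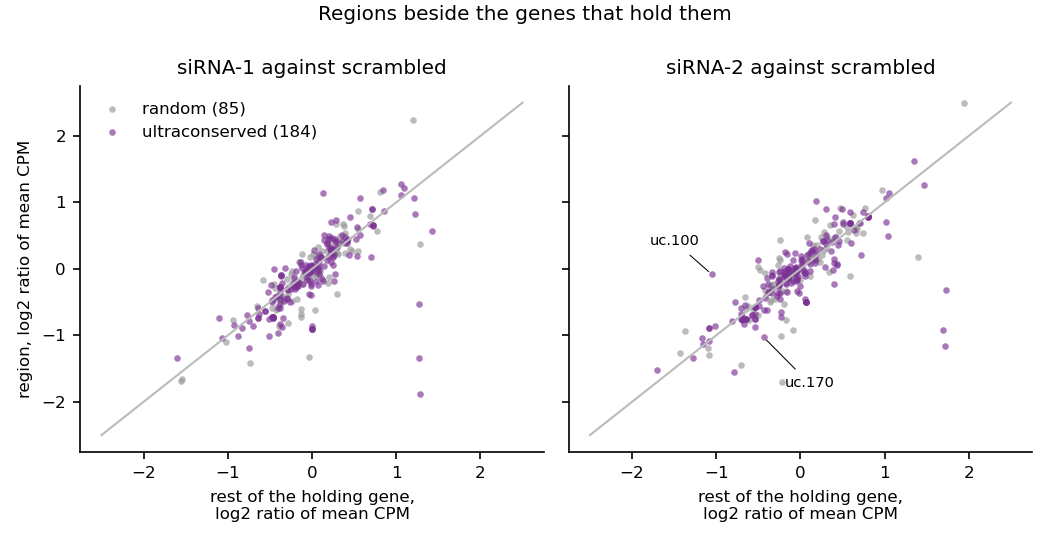
For each of 184 ultraconserved (purple) and 85 random (grey) regions, the log2 ratio of mean CPM against scrambled of the region (vertical axis) is plotted against that of the rest of its gene (horizontal axis), for siRNA-1 (left) and siRNA-2 (right), with the line of equality in grey. Most points lie near the line; uc.100 and uc.170, whose share differed with siRNA-2, are named, and the 3 purple points at rest-of-gene ratios of 1.27 to 1.28 (left) and 1.69 to 1.72 (right) are uc.299 to uc.301 in PAX2, whose region counts rest on scrambled replicate 4.

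uc.170 lies in an intron of FAM172A. It had 82, 83, 88 and 81 reads in scrambled, 52, 52, 38 and 55 under siRNA-1 and 38, 32, 52 and 51 under siRNA-2, with no overlap between scrambled and either siRNA. Its share of the gene's reads was 0.589% in scrambled, 0.451% with siRNA-1 and 0.389% with siRNA-2. The share fell by 0.60 on the log2 scale with siRNA-2 (SE 0.12, adjusted p = 0.00573, edgeR quasi-likelihood test). The call was lost without siRNA-2 replicate 2, which had the fewest reads.

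uc.100 lies in an intron of MAP3K20, the gene of a stress-activated kinase, and of its antisense transcript MAP3K20-AS1, whose interval was used. Its reads were 26, 22, 31 and 38 in scrambled, 7, 19, 15 and 16 under siRNA-1 and 19, 30, 43 and 26 under siRNA-2, where the range overlapped that of scrambled. The interval itself fell with both siRNAs, by 0.88 and 1.04. The region's share of it was 0.624% in scrambled, 0.578% with siRNA-1 and 1.21% with siRNA-2, a rise of 0.98 on the log2 scale with siRNA-2 (SE 0.22, adjusted p = 0.0081). With at least 30 reads per library required, uc.100 could not be fitted, and uc.170 alone was called. The call was also lost without siRNA-2 replicate 3, which had the most reads. Whether the counting used strand is not stated, so reads of MAP3K20 and of its antisense transcript cannot be told apart.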

How the data were processed

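RNA of 12 libraries of A172 cells was sequenced, 4 per group. The deposited values are raw read counts per interval on hg38, made by the authors; Salmon is named in the submitters' processing notes without a version, and the sources used here name no tool for counting the intervals. Of 48769 gene intervals, 44998 were used, after removal of duplicates, older names, ribosomal RNA and intervals reaching over 100 kb beyond their gene. Library sizes (43382164 to 54522766 reads) and TMM factors came from these gene intervals. Gene intervals and all 962 regions entered 1 quasi-likelihood fit in edgeR 4.0.16 (R 4.3.3; filterByExpr, minimum count 10 in a library and 15 in total), with Benjamini-Hochberg adjustment over all 25144 tested intervals and a threshold of 0.05. The share test set each region with at least 10 reads per library on average against the rest of its gene interval in edgeR. Positions came from GENCODE release 29. Simulated data recovered 17 of 33 regions changed 2-fold in siRNA-1 against scrambled and called 4 of 24944 unchanged intervals. DESeq2 1.42.0 was an alternative.

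Named regions were uc.110, the 10 with the highest level, the 8 highest and 8 lowest called changes per siRNA with groups that do not overlap, the 4 highest and 4 lowest called between the siRNAs, called shares, tested intergenic regions and the 3 highest random regions. The members, lists and rule were chosen with earlier results of these data known. Depth limits regions outside genes and intron-only regions most, with medians of 0 and 1.92 reads per library. A result that needs an item withheld for evaluation is not reported here.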

Additional observations from a re-analysis of the deposited data

Results flagged for a closer look

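Among 138 groups of 4 libraries looked at, in 46 named regions, 10 held a library far from the other 3 by Dixon's criterion. Chance flags about 1 in 20 groups. In the most-read genes these were uc.264 in scrambled replicate 1 (70.2 CPM, the others 64.2 to 64.8), uc.419 in scrambled replicate 2 (42.9 CPM, the others 40.1 to 40.5), uc.50 in scrambled replicate 2 (27.1 CPM, the others 25.3 to 25.5) and uc.418 in siRNA-1 replicate 2 (33.3 CPM, the others 29.6 to 30.1).

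uc.265 stood at 6.52 CPM in siRNA-2 replicate 2 (the others 7.13 to 7.20), and uc.135 at 0.538 CPM in siRNA-1 replicate 4 (the others 0.371 to 0.392). uc.305 and uc.306, which share all their reads, were at 1.21 CPM in scrambled replicate 3 (the others 1.00 to 1.04). uc.270 and uc.271, which share nearly all theirs, were at 6.70 and 6.69 CPM in siRNA-2 replicate 3 (the others 5.04 to 5.30).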

How the results depend on the processing

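Leaving out each library in turn gave 26 to 41 members higher and 39 to 54 lower with siRNA-1, 34 to 41 and 48 to 62 with siRNA-2, and 8 to 14 and 10 to 16 between the siRNAs. Shares of the holding gene that differed numbered 0 to 1 with siRNA-1 (uc.37 without siRNA-1 replicate 4) and 1 to 4 with siRNA-2 (4 without scrambled replicate 2, with uc.104 and uc.135 added). The uc.110 ratio ran from 0.350 to 0.767 with siRNA-1 and from 0.346 to 0.988 with siRNA-2. With at least 30 reads per library the share test called 1 member per siRNA, uc.416 with siRNA-1 (adjusted p = 0.0422, edgeR) and uc.170 with siRNA-2. Counting 1 region per holding gene, chosen after seeing the data, left 35 higher and 34 lower calls with siRNA-1. With siRNA-2 it left 31 and 33, in each case among fewer regions. With every interval of the table in the fit, calls under siRNA-1 were 30 higher and 55 lower, and under siRNA-2 they were 36 and 70. DESeq2 gave 35 and 45, and 37 and 58, in the same order. Replicate numbers did not pair the libraries: same-numbered libraries correlated at -0.07 to 0.04, and none correlated best with its own number. With the replicate block, 40 members were higher and 44 lower with siRNA-1, 38 and 53 with siRNA-2, and 10 and 16 between the siRNAs. Of 55 calls of named regions, 39 held in every alternative run, and none of 1311 alternative values reversed. Where a call was lost, the cause was not tested.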
